A study of Homo sapiens with 3 samples.

Results

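The genes of mitosis and of the passage from G2 into M phase form a list of 45 symbols, and all 45 were found among the 43913 gene symbols of the 3 libraries of the series. They were chosen by symbol from general knowledge of the cell cycle, with earlier results of these data known, and not by a measured value. They were followed in 4 groups of cells: the monoculture of MM.1S, that of HS-5, and the cells of each line from a coculture of both that lasted 4 h. MM.1S is an established line of human multiple myeloma cells, a cancer of plasma cells, and HS-5 is an established line of human bone marrow stromal cells that was immortalised with the papillomavirus genes E6 and E7. No group received a drug or a cytokine. Single cells were captured in droplets with barcoded beads (Drop-seq), and RNA molecules were counted by unique molecular identifiers (UMIs).

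Entry into mitosis is driven by cyclin B bound to the kinase CDK1, and exit from it by the anaphase-promoting complex (APC/C), a ubiquitin ligase that marks the cyclins and securin for destruction. Between these points the spindle is built by kinesins and microtubule-binding proteins, chromosomes are condensed and attached at kinetochores, a checkpoint delays anaphase until all are attached, and the cell is divided by cytokinesis. The transcripts of these genes are known to accumulate in late S phase and G2 and to be low in resting cells. The control runs through short promoter elements: the cell cycle genes homology region (CHR), which is bound by the MuvB core of the DREAM and B-MYB complexes and recruits FOXM1, and CCAAT boxes, which are bound by NF-Y.

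RefSeq promoter windows of 300 bases (GRCh38.p14, 250 bases before to 50 after each start) were at hand for 38 of the 45 members, 43 windows in all. None was in the table for TPX2, BUB3, BIRC5, HMGB2, AURKA, TTK and UBE2C. A CHR word, TTTGAA on either strand or TTCGAA, stood in 32 of the 43 windows, against 16.4% of all 35116 windows. In 18 of the 43 the word began within the 60 bases before the start, against 3.17% of all windows. At least 2 CCAAT words, on either strand, stood in 22 of the 43 windows against 10.8%, and 18 windows held a CHR word together with at least 2 CCAAT words against 1.91%. A word is a match of letters and not a binding site. Stretches of 200 bases, from 150 bases before the start, are shown for 6 members: PLK1, the member whose transcripts lay most in few MM.1S cells, CCNB2 and HMMR, which were lower in cocultured MM.1S cells, CKS1B, which was higher in cocultured HS-5 cells, MKI67, which moved in opposite directions in the lines, and CENPE, which was lower in cocultured HS-5 cells. Each is written 5′ to 3′ on the strand of the gene, with CHR and CCAAT words in capitals.
PLK1 (chr16:23678739-23678938, plus strand): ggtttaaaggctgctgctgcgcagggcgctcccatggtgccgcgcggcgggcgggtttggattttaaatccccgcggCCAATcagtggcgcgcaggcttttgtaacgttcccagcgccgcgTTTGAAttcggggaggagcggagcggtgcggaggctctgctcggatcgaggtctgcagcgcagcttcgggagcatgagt
CCNB2 (chr15:59104996-59105195, plus strand): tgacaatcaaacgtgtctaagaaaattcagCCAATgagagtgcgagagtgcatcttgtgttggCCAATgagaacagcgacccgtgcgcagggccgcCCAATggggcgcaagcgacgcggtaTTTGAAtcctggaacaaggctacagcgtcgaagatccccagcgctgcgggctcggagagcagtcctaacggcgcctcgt
HMMR (chr5:163460482-163460681, plus strand): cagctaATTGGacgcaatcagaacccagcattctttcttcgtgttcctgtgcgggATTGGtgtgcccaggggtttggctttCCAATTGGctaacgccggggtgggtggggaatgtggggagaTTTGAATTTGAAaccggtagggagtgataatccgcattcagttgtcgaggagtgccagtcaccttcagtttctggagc
CKS1B (chr1:154974531-154974730, plus strand): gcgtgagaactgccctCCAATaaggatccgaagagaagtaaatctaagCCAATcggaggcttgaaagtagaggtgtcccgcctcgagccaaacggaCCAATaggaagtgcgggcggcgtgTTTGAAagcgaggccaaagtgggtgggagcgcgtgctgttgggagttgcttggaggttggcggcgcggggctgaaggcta
MKI67 (chr10:128126374-128126573, minus strand): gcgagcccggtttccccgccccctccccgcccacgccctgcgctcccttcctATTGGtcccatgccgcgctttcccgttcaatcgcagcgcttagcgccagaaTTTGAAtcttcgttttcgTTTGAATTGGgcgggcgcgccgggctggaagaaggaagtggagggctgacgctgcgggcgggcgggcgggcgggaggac
CENPE (chr4:103198294-103198493, minus strand): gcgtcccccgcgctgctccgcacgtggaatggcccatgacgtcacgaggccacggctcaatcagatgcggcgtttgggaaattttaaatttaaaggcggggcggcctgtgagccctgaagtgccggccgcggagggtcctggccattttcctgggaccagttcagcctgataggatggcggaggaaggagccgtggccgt
In PLK1 and CCNB2 the word TTTGAA began 29 bases before the start, in CKS1B 30 bases before it. HMMR held it 2 times in direct succession, and MKI67 also held 2 copies. Words of the 2 kinds can share letters, as the second copy in MKI67 and a CCAAT word on the other strand did. The CENPE stretch held neither word.

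Each condition was 1 library, so no difference has a replicate check, p-values are not given, and all 95% intervals (exact Poisson limits for a level, exact conditional binomial for a ratio of CPM without an added count, exact Clopper-Pearson for a share of cells) cover counting error only. Barcodes under 200 genes were dropped, and the coculture was divided by 63 MM.1S-specific and 163 HS-5-specific genes into 1647 MM.1S and 2102 HS-5 cells, with 107 mixed cells left out. The groups differed in depth: MM.1S cells had a median of 2201 UMIs in monoculture (3947 cells) and 669 in coculture, and HS-5 cells had 971.5 (3732 cells) and 957. Free RNA of the other line made up an estimated 1.59% of the UMIs of cocultured MM.1S cells and 0.687% of those of cocultured HS-5 cells. Most fixed markers were highest in the line they mark, for example MZB1 with 2526 CPM in MM.1S and 0.163 CPM in HS-5 monoculture, but FN1 was higher in MM.1S (810 CPM) than in HS-5 monoculture (252 CPM), SDC1 was lower (38.1 against 135 CPM), CAV1 was higher (457 against 356 CPM), COL6A3 had 2.88 and 0.977 CPM, and TAGLN was near 0 in both. Libraries shared 39 to 76 cell barcodes pairwise, and without these barcodes and those alike in 11 bases the summed ratio of the members was -0.18 in MM.1S and -0.33 in HS-5 cells, against -0.19 and -0.33 with them. How reads shared by a gene and its near-identical copies were counted is not given in the sources used here, and GAPDH, which has many processed copies, was at only 47.8 CPM in MM.1S monoculture, so levels of members with such copies are uncertain. The 14 copies of members that could be recognised by symbol held at most 18 UMIs each.

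The members were higher in the stromal line, where line and library cannot be told apart. Together they held 15267 counts per 1000000 UMIs (CPM) in HS-5 monoculture (15169 to 15365) and 4055 CPM in MM.1S monoculture (4017 to 4094), a 3.76-fold difference (log2 1.91, 1.9 to 1.93). A ratio here is log2((CPM + 1) / (CPM + 1)), genes whose mean over the pair reaches 10 CPM are compared, and 1.5-fold is the size past which a gene is counted as higher or lower. All 45 members were compared, and 37 were at least 1.5-fold higher in HS-5 and 1 lower, where 49.5% of the 8734 genes compared were higher and 21.8% lower. The median log2 ratio was 1.58 over the members and 0.56 over all genes, so 1.02 remained relative to all genes. The median member had a UMI in 8.02% of HS-5 cells and in 2.20% of MM.1S cells when each cell was thinned to 500 UMIs, and in 19.3% and 11.5% without thinning. The 163 HS-5-specific genes had a UMI in a median of 0.0253% of MM.1S monoculture cells at 500 UMIs, with 1.11% at most. They were chosen as at least 50-fold lower in this same monoculture, so this low share follows from the choice. It gives no independent background level.

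**Figure D1:**
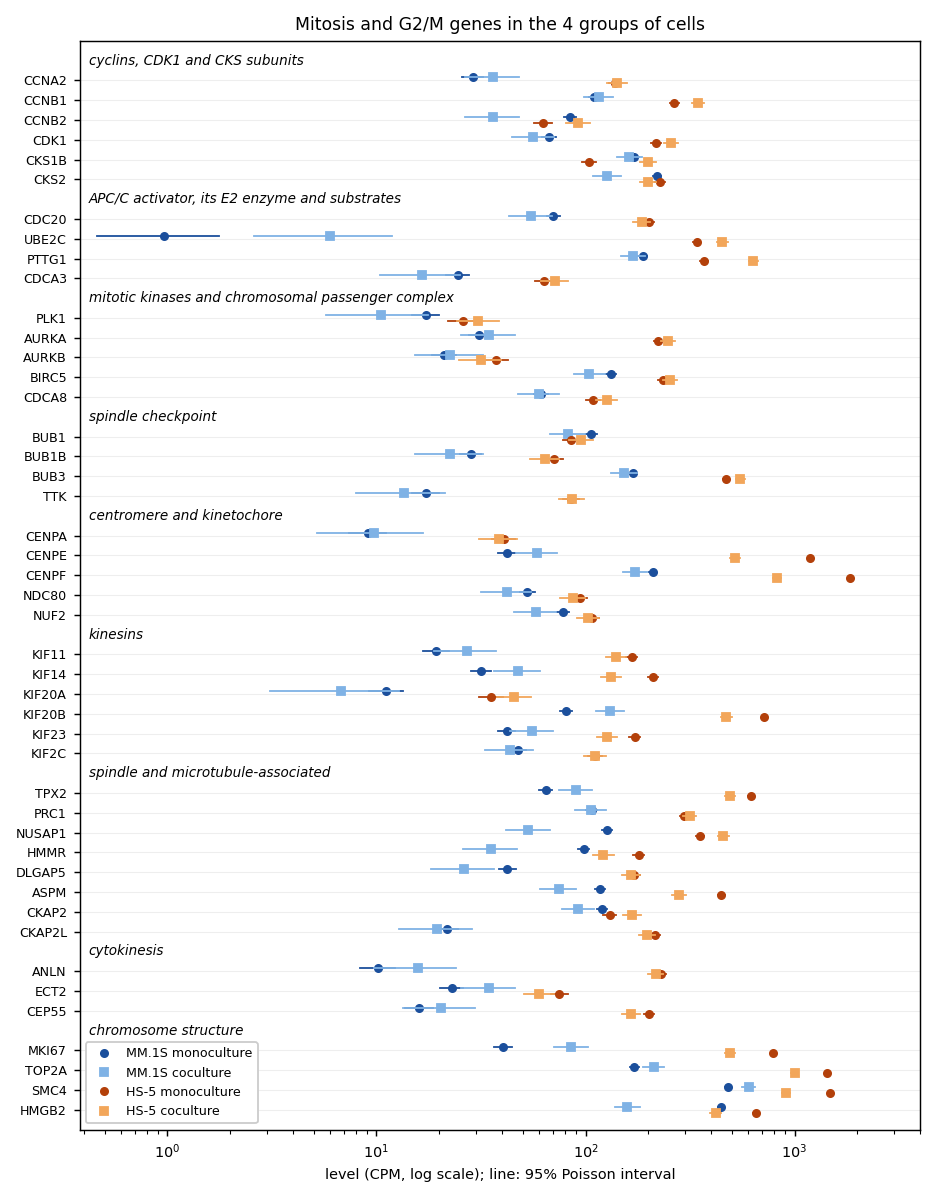
Level of each of the 45 members in CPM (log scale) by role, with circles for monoculture, squares for coculture, blue for MM.1S, orange for HS-5 and lines for 95% Poisson intervals. For 42 members the HS-5 monoculture lies above the MM.1S monoculture, and for CCNB2, CKS1B and BUB1 below it.

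The cyclins and their partners were the role in which the lines were closest, by the summed CPM (log2 0.58) and by the median (0.66). CCNB1, the main mitotic cyclin, had 110 CPM in MM.1S and 266 CPM in HS-5 monoculture (log2 1.27). CCNA2, the cyclin of S phase and early mitosis, had 28.9 and 138 CPM (log2 2.22), and the kinase CDK1 had 66.9 and 217 CPM (log2 1.68). The other way round, CCNB2, the second B-type cyclin, had 84.5 CPM in MM.1S and 62.8 in HS-5 (log2 -0.42), and CKS1B, a small subunit of CDK complexes, had 171 and 104 (log2 -0.71, -0.85 to -0.58). CKS1B was the 1 member at least 1.5-fold lower in HS-5. Its paralogue CKS2 had 220 and 227 CPM, a difference within counting error (log2 0.05, -0.05 to 0.14).

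The largest contrast was in UBE2C, the ubiquitin-conjugating enzyme that works with the APC/C (chromosome 20, 45812576 to 45816957, plus strand, GRCh38 in GENCODE release 29). It had 10 UMIs over 3947 MM.1S monoculture cells (0.958 CPM, 0.46 to 1.76) and 2088 UMIs over 3732 HS-5 cells (340 CPM), a log2 ratio of 7.44. Without the added 1 CPM the counting interval of the ratio was 7.59 to 9.53, which shows how far this value depends on the added count. In cocultured MM.1S cells there were 8 UMIs, and the free RNA estimated from HS-5 cells would give 7.17 CPM against the 6.01 CPM found. The transcript was thus hardly counted in MM.1S cells, while the APC/C activator CDC20, with which it acts, had 70.3 CPM there and 201 CPM in HS-5 (log2 1.5). Its 3 recognised processed copies had 2 UMIs in MM.1S monoculture. UBE2S, the partner enzyme that extends the ubiquitin chain and not a member, had 0.958 CPM in MM.1S and 36.3 CPM in HS-5 (log2 4.25), a smaller ratio. By the rule for line-specific genes UBE2C would have served to divide the coculture, and it was taken out of those genes.

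By summed CPM, cytokinesis genes (log2 3.37), kinetochore genes (3.06) and kinesins (2.60) stood furthest apart between the lines, while by the median ratio chromosome structure genes (2.34) stood further apart than kinetochore genes (2.04). All 6 kinesins were over 1.5-fold higher in HS-5, from KIF2C, a microtubule depolymerase (log2 1.21), to KIF20B, a cytokinesis motor (80.7 against 718 CPM, log2 3.14). ANLN, which scaffolds the contractile ring, had 10.2 CPM in MM.1S and 230 CPM in HS-5 (log2 4.37), and CEP55, which recruits the abscission machinery, had 16.0 and 202 CPM (log2 3.58). CENPE, a kinetochore motor that brings chromosomes to the plate, had 42.1 CPM in MM.1S and 1185 CPM in HS-5, the largest ratio after UBE2C (log2 4.78, 4.68 to 4.96). Its neighbour on the kinetochore, CENPF, had 209 and 1836 CPM (log2 3.13), while NUF2, of the NDC80 complex that holds microtubules, had only 78.1 and 108 CPM (log2 0.46). MKI67, the surfactant of mitotic chromosomes and the antigen of proliferation stains, had 40.4 and 791 CPM (log2 4.26). At the other end of the chromosome group, HMGB2, a DNA-bending protein, had 443 and 653 CPM (log2 0.56).

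The kinases, the checkpoint and the spindle genes lay between. AURKA, the kinase of spindle poles, had 31.0 and 223 CPM (log2 2.81), and PLK1, the kinase of mitotic entry, had 17.3 and 25.9 CPM (log2 0.56), just under 1.5-fold. BIRC5 (survivin) and CDCA8 (borealin), both of the chromosomal passenger complex, had log2 ratios of 0.82 and 0.82, and AURKB, its kinase, 0.80. Of the checkpoint genes, BUB1 was slightly lower in HS-5 (107 against 84.8 CPM, log2 -0.33) and TTK, the kinase that starts the checkpoint, was higher (17.3 against 85.3 CPM, log2 2.24). Among spindle genes the ratio ran from 0.12 for CKAP2, a microtubule-binding protein (120 against 130 CPM), to 3.25 for its relative CKAP2L and 3.24 for TPX2, the activator of AURKA (64.4 against 616 CPM). Of 60 further G2/M genes that are no members, 56 were compared, and 48 of these were at least 1.5-fold higher in HS-5 and 1 lower (CENPM, log2 -0.63), with a median of 1.76. S-phase genes had a median of 0.49 over 44 genes, 21 higher and 4 lower, near the median of 0.56 and the 49.5% of higher genes over all genes.

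In MM.1S cells the members were together slightly lower in coculture, but the value depended on the depth of the cells. They held 4055 CPM in monoculture and 3564 CPM in coculture (3463 to 3667), a log2 ratio of -0.19 (-0.23 to -0.14). Of the 45, 42 passed the minimum of 10 CPM. The 3 others were UBE2C, CENPA, the centromeric histone (9.11 and 9.76 CPM), and KIF20A, a cytokinesis kinesin (11.1 and 6.76 CPM). Among the 42, 3 were at least 1.5-fold higher, where 33.6% of 7837 genes were, and 8 were at least 1.5-fold lower, where 13.9% of the genes were. The median was -0.14 against 0.24 over all genes, that is -0.38 relative to them. With each cell thinned to 1000 UMIs, the summed ratio was 0.44 and the median 0.57, with 21 members higher and 2 lower. The median of all genes was then 0.27. That depth was reached by 379 of the 1647 cocultured MM.1S cells but by 3870 of the 3947 in monoculture. The values at 1000 UMIs thus set the deepest cells of the coculture against nearly all of the monoculture.

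HMGB2 had the lowest ratio in MM.1S cells, with 443 CPM in monoculture and 158 CPM in coculture (log2 -1.48, -1.69 to -1.28). HMMR, a spindle protein first known as a hyaluronan receptor, had 98.1 and 35.3 CPM (log2 -1.45, -1.93 to -1.05), and NUSAP1, which bundles microtubules near chromosomes, had 127 and 53.3 CPM (log2 -1.24). CCNB2 had 84.5 and 36.1 CPM (log2 -1.21, -1.68 to -0.81). These 4 were the members lower by over 2-fold, and at 1000 UMIs per cell their log2 ratios were -0.79, -0.61, -0.41 and -0.21, the last 2 under 1.5-fold. The shares of cells with a UMI of NUSAP1 at that depth, 8.53% in monoculture (7.67 to 9.45%) and 7.12% in coculture (4.75 to 10.2%), had overlapping intervals, as did those of CCNB2, 5.79% (5.07 to 6.57%) and 5.01% (3.04 to 7.72%). CKS2 had 220 and 127 CPM (log2 -0.79). PLK1, DLGAP5, a spindle assembly factor, and ASPM, which acts at spindle poles, had log2 ratios of -0.66, -0.66 and -0.65, PLK1 on 14 UMIs in coculture, with an interval that included 0 (-1.61 to 0.07). At 1000 UMIs per cell the ratio of DLGAP5 was 0.35.

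MKI67 had the highest ratio of the members compared in MM.1S cells, with 40.4 CPM in monoculture and 85.6 CPM in coculture (log2 1.06, 0.77 to 1.38), or 0.82 relative to the median of all genes. KIF20B had 80.7 and 131 CPM (log2 0.70, 0.46 to 0.94), and ANLN 10.2 and 15.8 CPM on 21 UMIs in coculture (log2 0.59, -0.12 to 1.32). Relative to the median of all genes KIF20B (0.46) and ANLN (0.35) were under 1.5-fold. With the estimated free RNA of HS-5 cells subtracted, the ratios were 0.95, 0.64 and 0.28, so that ANLN was under 1.5-fold. By role, the 8 spindle genes had the lowest median in MM.1S cells (-0.51, 4 lower by over 1.5-fold) and the 3 cytokinesis genes the highest (0.57). The 5 kinesins compared had a median of 0.46, and the 4 checkpoint genes one of -0.32 with none past 1.5-fold. The B-type cyclins went apart, with CCNB1 at 110 and 116 CPM (log2 0.08, -0.18 to 0.32) and CCNB2 lower as above. CDK1 had a log2 ratio of -0.24 (-0.61 to 0.10), CDC20 of -0.35 (-0.73 to -0.01) and PTTG1, which encodes securin, of -0.16 (-0.36 to 0.04).

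The other members of MM.1S cells stayed within 1.5-fold. Among them SMC4 had the most UMIs of the members in both groups, with 479 and 605 CPM (log2 0.33, 0.23 to 0.44). Above 0 were CCNA2 (28.9 and 36.1 CPM, log2 0.31), TPX2 (64.4 and 90.1 CPM, log2 0.48), CENPE (42.1 and 58.6 CPM, log2 0.47), the spindle motor KIF11 (19.4 and 27.0 CPM, log2 0.46), the midzone motor KIF23 (log2 0.40) and ECT2, the exchange factor that activates RhoA at the division plane (log2 0.57). The intervals of CCNA2 (-0.15 to 0.76) and KIF11 (-0.07 to 1.00) included 0. Relative to the median of all genes (0.24), these ratios ran from 0.07 for CCNA2 to 0.33 for ECT2. On the lower side were CDCA3 (24.5 and 16.5 CPM, log2 -0.54), NUF2 (log2 -0.43), NDC80 (log2 -0.32), BIRC5 (log2 -0.34), BUB1 (log2 -0.36) and BUB1B, the checkpoint protein BUBR1 (log2 -0.31). The intervals of CDCA3 (-1.27 to 0.06), NDC80 (-0.75 to 0.07) and BUB1B (-0.92 to 0.22) included 0. PRC1, which bundles the midzone microtubules, was level, with 107 and 106 CPM (log2 -0.02, -0.28 to 0.24).

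In HS-5 cells the summed members were also lower in coculture, with 12128 CPM (11992 to 12267) against 15267 CPM in monoculture, a log2 ratio of -0.33 (-0.35 to -0.31). All 45 were compared. At least 1.5-fold higher were 2 members, against 7.88% of 8810 genes, and at least 1.5-fold lower were 8 members, against 9.97%. The median was -0.08, close to -0.03 over all genes. The median member thus lay near the median gene, and the sum was set mainly by the members with the most UMIs.

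CENPE and CENPF had the lowest ratios in HS-5 cells. CENPE had 1185 CPM in monoculture and 519 CPM in coculture (log2 -1.19, -1.28 to -1.11), and CENPF 1836 and 822 CPM (log2 -1.16, -1.23 to -1.09). The other 3 kinetochore genes did not pass 1.5-fold, with log2 ratios of -0.08 for CENPA, -0.11 for NDC80 and -0.06 for NUF2. All 4 genes of chromosome structure were lower: SMC4, a condensin subunit, had 1480 and 911 CPM (log2 -0.70), MKI67 791 and 491 CPM (log2 -0.68, -0.78 to -0.59), HMGB2 653 and 421 CPM (log2 -0.63), and TOP2A, the topoisomerase that untangles sister chromatids, 1425 and 1002 CPM (log2 -0.51, under 1.5-fold). ASPM, KIF14, a kinesin of the midbody, and KIF20B had log2 ratios of -0.67, -0.65 and -0.60.

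CKS1B and PTTG1 were the 2 members at least 1.5-fold higher in cocultured HS-5 cells. CKS1B had 104 CPM in monoculture and 199 CPM in coculture (log2 0.93, 0.76 to 1.10), and PTTG1 369 and 635 CPM (log2 0.78, 0.69 to 0.88). Under 1.5-fold but with intervals above 0 were 10 members, among them CCNB2 (62.8 and 92.2 CPM, log2 0.55), UBE2C (340 and 452 CPM, log2 0.41), CCNB1 (log2 0.38) and CDK1 (log2 0.24). Of the same roles, CKS2 had a log2 ratio of -0.18 (-0.34 to -0.04) and CDC20 one of -0.11 (-0.27 to 0.04). The 6 cyclins, CDK1 and CKS genes had a median of 0.31 and the 4 APC/C genes one of 0.29, against -0.66 over the 4 chromosome genes and -0.34 over the 6 kinesins. NUSAP1, lower in cocultured MM.1S cells, had 354 and 457 CPM in HS-5 cells (log2 0.37, 0.26 to 0.47), and BUB3 had 470 and 551 CPM (log2 0.23). Close to 0 were KIF2C (log2 0.00), TTK (log2 0.01) and DLGAP5 (log2 -0.05), and slightly below it AURKB (37.4 and 31.5 CPM, log2 -0.24, -0.64 to 0.13), BUB1B (log2 -0.15) and ECT2 (log2 -0.31).

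Of the 42 members compared in both lines, MKI67 and KIF20B were past 1.5-fold in opposite directions. HMGB2, HMMR, ASPM, CKS2 and CENPF were below 0 in both lines with intervals that excluded 0 in each. The 2 comparisons share the coculture library. The ratios went with the length of the transcript. Over the members the ratio was higher for longer transcripts (longest GENCODE transcript) in MM.1S cells (Spearman rho 0.42 across 42 genes) and lower for them in HS-5 cells (-0.54 across 45 genes), and the same was seen over all genes compared (0.28 and -0.27). These are descriptions across genes, which share the libraries and are not replicates. The 22 members with shorter transcripts (613 to 2973 nt) summed to a log2 ratio of -0.52 in MM.1S (2028 CPM to 1413 CPM) and 0.15 in HS-5 cells (4326 to 4787 CPM). The 22 with longer transcripts (3201 to 12678 nt) summed to 0.13 in MM.1S (1929 to 2116 CPM) and -0.58 in HS-5 cells (10761 to 7220 CPM). The part of transcript length, or of a difference between libraries that goes with it, in any single ratio was not tested.

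**Figure D2:**
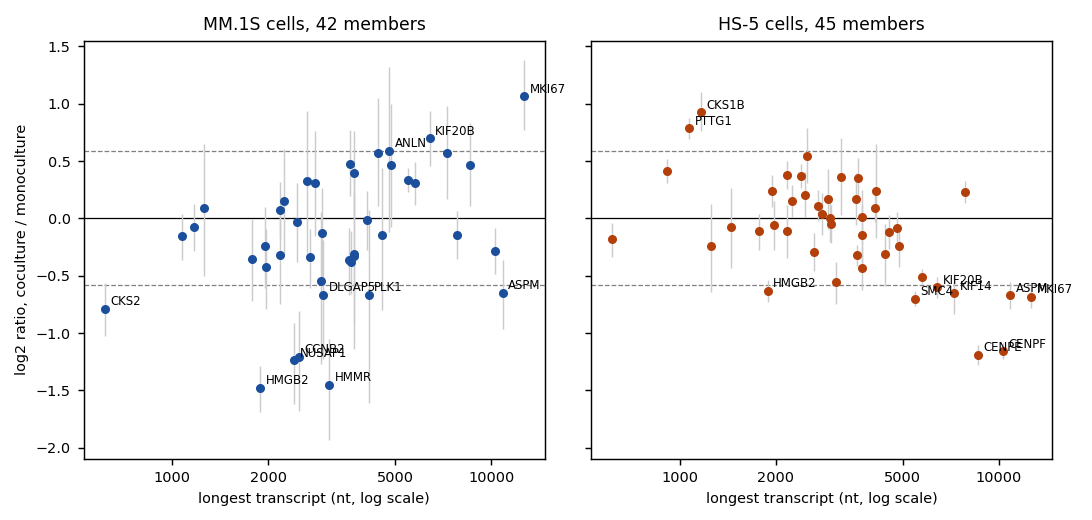
Log2 ratio of coculture over monoculture for each member compared, against the length of its longest transcript (nt, log scale), in MM.1S (42 members) and HS-5 cells (45 members), with grey lines for 95% counting intervals and dashed lines at 1.5-fold. MKI67 and KIF20B lie above 0 in MM.1S and below 0 in HS-5 cells, and HMGB2 and ASPM lie below 0 in both. Of the 22 members with longer transcripts, 11 lie above 0 and 10 below in MM.1S, and 7 above and 15 below in HS-5 cells.

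With a smooth trend of the ratio over length removed, based on all genes, CENPE (-1.02) and CENPF (-0.97) were still more than 1.5-fold lower in HS-5 cells, as was HMGB2 (-0.70). CKS2, at -0.18 before, passed 1.5-fold after this step (-0.64), while SMC4 (-0.58) was just under 1.5-fold. PTTG1 came to 0.48 and CKS1B to 0.66, and MKI67 and KIF20B each came to -0.47. In MM.1S cells no member was then 1.5-fold higher, and MKI67 came to 0.51 and KIF20B to 0.17. There 15 members were lower, led by HMMR (-1.66), HMGB2 (-1.39), NUSAP1 (-1.29), CCNB2 (-1.29) and ASPM (-1.19). This step also shifts the zero, as the median of all genes in MM.1S cells went from 0.24 to -0.02. With only that median set to 0 and the trend kept, 1 member was higher and 13 were lower.

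The members were unevenly spread over the cells. With each cell thinned to 500 UMIs, MM.1S monoculture cells held a mean of 1.65 member UMIs and HS-5 monoculture cells one of 7.59, and the variance was 3.14 and 6.97 times the mean, where counting alone would give 1. In the MM.1S monoculture 40.5% of cells had no member UMI (38.9 to 42.0%), and in coculture 37.5% had none (34.8 to 40.3%). For HS-5 these shares were 9.59% (8.63 to 10.6%) and 17.4% (15.7 to 19.3%). Cells were called high in members above the smallest count that no more than 10% of the monoculture cells of their line exceeded. That was over 5 UMIs in MM.1S, with 7.12% of 3947 cells in monoculture (6.34 to 7.97%) and 4.75% of 1200 in coculture (3.62 to 6.11%). In HS-5 it was over 18 UMIs, with 9.53% of 3515 cells in monoculture (8.58 to 10.5%) and 3.83% of 1801 in coculture (2.99 to 4.82%). These classes are ranges of a score, and 118 and 49 monoculture cells held exactly 5 and 18 UMIs. At 1000 UMIs the MM.1S shares were 8.37% of 3870 cells in monoculture (7.52 to 9.29%) and 10.6% of 379 in coculture (7.65 to 14.1%). Their order was reversed, but the intervals overlapped. The HS-5 shares were 9.82% of 1802 and 2.91% of 998 cells.

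**Figure D3:**
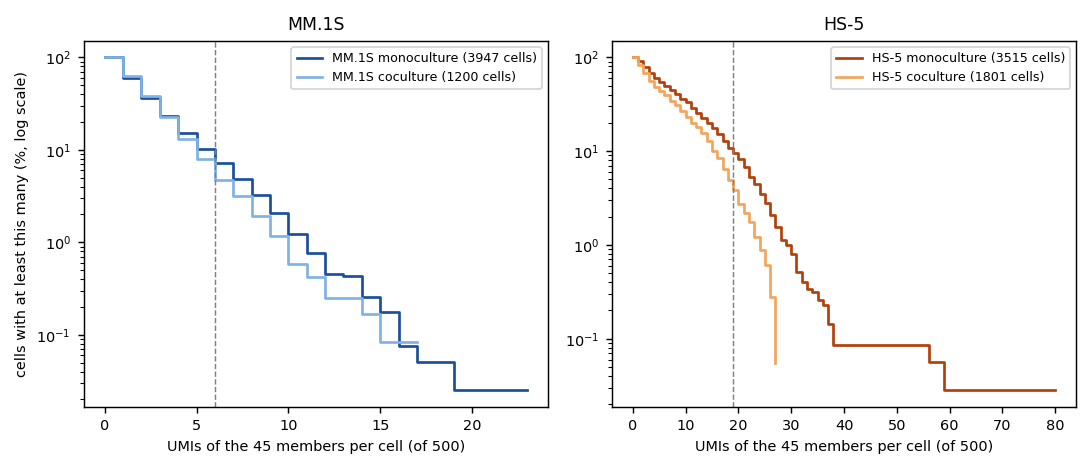
Share of cells (%, log scale) with at least a given number of member UMIs when each cell was thinned to 500 UMIs, for MM.1S and HS-5 cells in monoculture and coculture, with a dashed line at the smallest count called high. The coculture curve of HS-5 cells runs below that of the monoculture, where 3.83% and 9.53% of cells are called high.

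The share of high cells depended on whether longer or shorter members were scored. Scored by the 22 longer members, 8.19% of monoculture HS-5 cells and 1.44% of cocultured ones (0.945 to 2.11%) were high. Scored by the 22 shorter members, 7.54% and 11.9% (10.4 to 13.5%) were. In MM.1S cells the longer members gave 9.35% in monoculture and 11% in coculture, and the shorter 9.91% and 4.83%. In HS-5 cells the difference between the shares thus changed direction with the members used. In MM.1S cells the coculture share was lower by the shorter members, while by the longer members the intervals overlapped.

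In MM.1S cells the members' level rose with depth, while in HS-5 monoculture it was highest in cells of 1000 to under 2000 UMIs. In MM.1S monoculture the members held 1824 CPM in the 77 cells of 500 to under 1000 UMIs, 2279 CPM in cells of 1000 to under 2000 and 4621 CPM in cells of 2000 or more. Cocultured MM.1S cells held more in each of these ranges, with 2590 CPM (2460 to 2725), 4491 CPM (4295 to 4694) and 6616 CPM (6186 to 7067), but only 50 of them reached 2000 UMIs, against 2268 in monoculture. The deeper 50% of each group were the cells from its own median up, 669 UMIs in coculture and 2201 in monoculture, so depth was not matched there. In these cells the members were lower in coculture, with a summed log2 ratio of -0.22, a median of -0.14, 1 member higher and 9 lower. High cells were then 3.28% against 7.45% in monoculture. The part of depth in the lower total was not tested. HS-5 cells in coculture held less than in monoculture from 500 to under 1000 UMIs (9899 against 14105 CPM) and from 1000 to under 2000 UMIs (11359 against 16987 CPM), and about as much at 2000 or more (15124 against 15058 CPM). A cell with more RNA and a cell captured more completely cannot be told apart by depth.

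**Figure D4:**
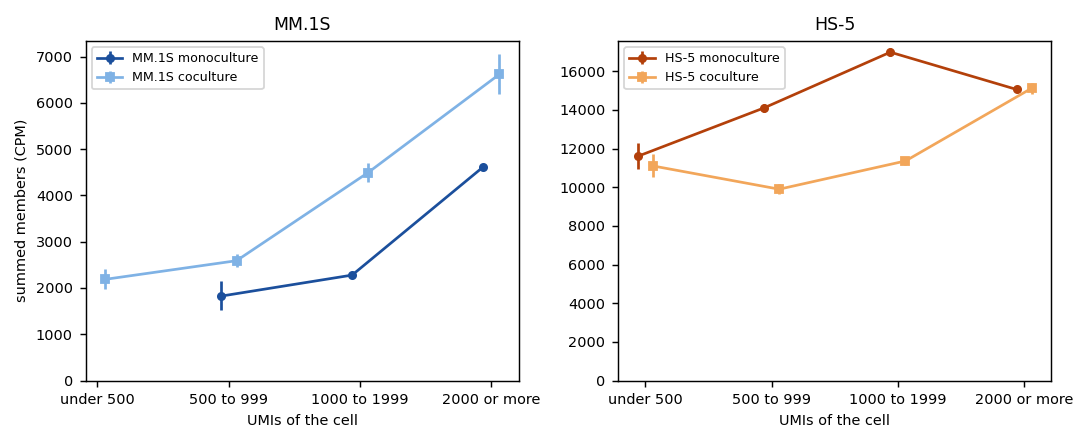
Summed level of the 45 members (CPM, with 95% Poisson intervals) in cells grouped by their UMI count, for MM.1S and HS-5 cells in monoculture (circles) and coculture (squares). In MM.1S cells the coculture lies above the monoculture in each range both have, and in HS-5 cells below it from 500 to under 2000 UMIs.

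The members were found in the same cells. For each member, cells of a group were ranked by the UMIs of the other 44 at 500 UMIs per cell, and the share of its own UMIs in the upper 10% of cells was taken, where an even spread gives 10%. Of the 40 members with at least 20 thinned UMIs in MM.1S monoculture, 39 had at least 20% of their UMIs in these cells, with a median of 35.9%, where 3.88% of 7300 other genes reached that share by the rank of all members. In HS-5 monoculture 42 of 45 did, with a median of 26.2%, against 2.84% of 8487 other genes. In coculture the medians were 31.0% in MM.1S (29 members) and 28.2% in HS-5 cells (45 members).

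PLK1 was the most concentrated member in MM.1S monoculture, with 78.6% of 28 UMIs in the upper 10% of cells (59.0 to 91.7%), but had 25.5% of 47 UMIs in HS-5 monoculture. CENPE followed in MM.1S with 55.8%, AURKA with 53.3% and CCNB1 with 53.0%. CDCA3, a trigger of mitotic entry through WEE1 degradation, led in HS-5 monoculture with 41.8%, before CENPA with 40.0% and KIF14 with 37.8%. The lowest share in MM.1S monoculture was that of BUB3, a checkpoint protein, with 17.9% (16.5% in HS-5), and the lowest in HS-5 monoculture that of CKS1B, with 15.7% (23.4% in MM.1S). BUB3, SMC4 and the CKS genes are also known from other phases of the cell cycle. Without BUB3, SMC4, HMGB2, CKS1B and CKS2 the share of high cells was 8.64% and 6.42% in MM.1S and 9.90% and 4.44% in HS-5 cells in monoculture and coculture.

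**Figure D5:**
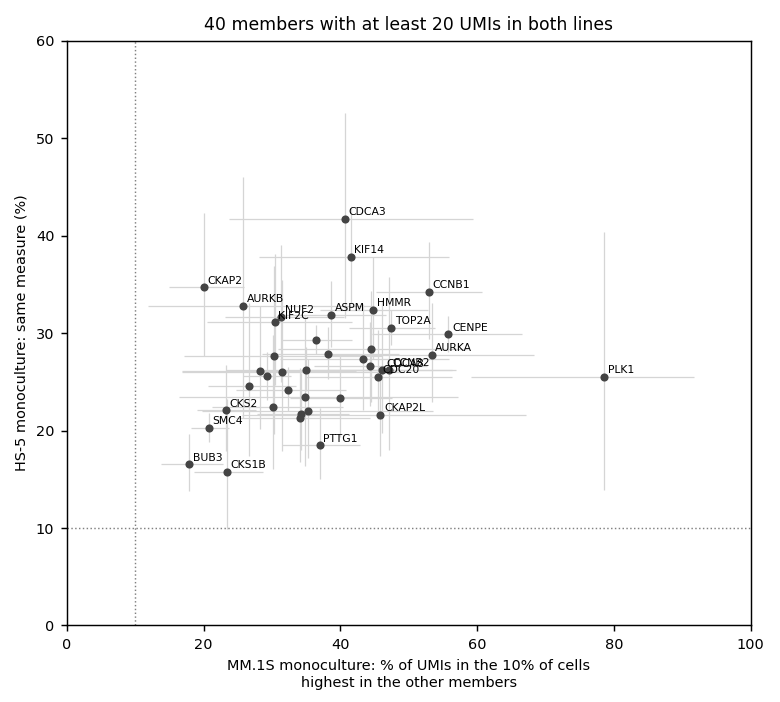
Share of each member's UMIs (%) that lay in the 10% of cells highest in the other members, in MM.1S monoculture (x axis) against HS-5 monoculture (y axis), for the 40 members with at least 20 UMIs in both at 500 UMIs per cell, with 95% Clopper-Pearson intervals in grey and dotted lines at 10%. All members shown lie above 10% on both axes, PLK1 furthest to the right with 78.6% and CDCA3 highest with 41.8%.

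All other genes of at least 50 CPM were ranked by the same share, 2677 in MM.1S and 3650 in HS-5 monoculture, and the first 10 are named. In MM.1S monoculture KPNA2, an importin (29.8%), ARL6IP1, an ER-shaping protein (28.4%), and SMC2, a condensin subunit (26.4%), led, before CENPH, HMGB3, CKAP5, HIRIP3, SGCE, RAD21 and UNC13C. In HS-5 monoculture CDKN2D, an inhibitor of CDK4 and CDK6 (32.4%), NEK2, a centrosome kinase (31.5%), and DEPDC1 (29.3%) led, before HJURP, KNL1, GTSE1, KIF18A, ARHGAP11A, G2E3 and PRR11. Of the 60 further G2/M genes, summed, high cells held 3.53 times the level of the other cells in MM.1S (3.20 to 3.89) and 2.38 times in HS-5 monoculture (2.26 to 2.52). S-phase genes were 1.32 times as high in high MM.1S cells (1.20 to 1.45) but 0.629 times as high in high HS-5 cells (0.576 to 0.687), and in coculture 1.03 (0.851 to 1.24) and 0.562 (0.451 to 0.692). Reference genes were at 0.986 and 0.926 in the monocultures. The high cells of HS-5, with a higher limit and more member UMIs counted, thus had fewer S-phase transcripts than other HS-5 cells, and those of MM.1S did not.

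A list of genes that regulate the members, which does not hold FOXM1 and MYBL2, had no common direction. Among 22 CDK inhibitors, pocket proteins, E2F, MuvB and NF-Y genes found in the files, 18 were compared in MM.1S cells, with a median of -0.05, 4 higher and 2 lower, where over all genes the median was 0.24, with 33.6% higher and 13.9% lower. In HS-5 cells 20 were compared, with a median of 0.05, 1 higher and 1 lower, where over all genes 7.88% were higher and 9.97% lower. In MM.1S cells RBL2, the pocket protein p130 of the DREAM complex, had 38.8 CPM in monoculture and 8.26 CPM in coculture on 11 UMIs (log2 -2.10, -3.25 to -1.38). TFDP2, an E2F partner, had 34.9 and 10.5 CPM in the same cells (log2 -1.64). E2F4, the E2F of DREAM, had 27.3 and 86.4 CPM in MM.1S cells (log2 1.63, 1.34 to 1.98), and TFDP1 35.5 and 89.4 CPM (log2 1.31). From the further G2/M genes, FZR1, the APC/C activator of G1 also called CDH1, had 6.71 CPM in MM.1S monoculture and 61.6 CPM in MM.1S coculture (log2 3.02, 2.72 to 3.68). MYBL2, which encodes B-MYB, had 10.1 and 45.1 CPM in these cells (log2 2.06). FOXM1 had 10.4 and 24.0 CPM in MM.1S cells (log2 1.13). In HS-5 cells FOXM1 had 68.2 and 45.3 CPM and MYBL2 54.7 and 36.4 CPM, each with a log2 ratio of -0.58. The median of these further genes was 0.17 in MM.1S cells (49 compared, 12 higher and 7 lower), below that of all genes, and -0.16 in HS-5 cells (56 compared, 3 higher and 3 lower), where all genes had -0.03, with 7.88% higher and 9.97% lower. S-phase genes had a median of 0.44 in MM.1S (41 compared, 13 higher and 2 lower, a share of higher genes near that of all genes), led by CHAF1A, a histone chaperone subunit (log2 1.63), and of -0.05 in HS-5 cells (44 compared, none higher and 3 lower). In HS-5 cells CDKN3, a phosphatase of CDK1 and CDK2 whose transcript follows G2/M, had 129 CPM in monoculture and 207 CPM in coculture (log2 0.68), and CENPW, a centromere protein, 99.8 and 185 CPM (log2 0.88). These were the highest of their lists. The lowest were NFYA, with 23.4 and 13.7 CPM (log2 -0.73), and SPC24, with 64.8 and 35.2 CPM (log2 -0.86). Of the further G2/M genes compared in HS-5 cells, 22 were above 0 and 34 below.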

How the data were processed

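Single-cell RNA of 3 Drop-seq libraries was analysed from the count matrices deposited by the authors, which hold UMI counts per gene and cell barcode and no normalization. The submitters' processing notes name UMI-tools 1.0.0, STAR 2.5.3a, Subread featureCounts 1.6.4, SAMtools 1.9, Cell Ranger 3.0.2 and the build GRCh38 (hg38), with no order or role. The members and all gene lists were chosen with earlier results of these data known.

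Cells with at least 200 genes were kept. Coculture cells were divided by genes at least 50-fold higher in 1 monoculture and of at least 20 CPM there, and cells with 20 to 80% of such UMIs from either line were left out as mixed. No doublet caller was run. Counts were summed per group and given as CPM. Ratios were computed with 1 CPM added for genes whose mean over the pair reached 10 CPM. No count test was made with 1 library per group. Cells were compared after thinning to 500 UMIs (seed 1), with 0 to 447 shallower cells per group left out. Total counts were 10433182 for MM.1S, 6143448 for HS-5 and 3981392 for the coculture, and a count of 0 allows up to 0.288 to 2.25 CPM in a group (3 counts). The share of free RNA was taken from UMIs of genes specific to the line a cell does not belong to. Transcript lengths were the longest per gene in GENCODE release 29. The steps were tested on simulated data.

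Named were the members, of each other list some of the 3 highest and 3 lowest genes by ratio, and per monoculture the 10 other genes of at least 50 CPM most concentrated in the cells high in members. The marker and reference genes, UBE2S and GAPDH were named for the checks they serve, CDKN3 and CENPW as the highest and NFYA and SPC24 as the lowest of their lists in HS-5 cells. FOXM1 was named because the opening gives it as a regulator of the members. Python packages were numpy 2.4.6, scipy 1.17.1, pandas 2.3.3, statsmodels 0.14.6 and matplotlib 3.10.9. Alternatives of scaling, added count, minimum level, cell filter, depth, free RNA, division of the coculture and transcript length were run. Those with 1000 UMIs per cell for the ratios, the deeper 50% of cells, the shared barcodes and the members split by length were chosen after seeing the data.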

Additional observations from a re-analysis of the deposited data

Results flagged for a closer look

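MKI67 and KIF20B stood past 1.5-fold in opposite directions in the lines. MKI67 had a log2 ratio of coculture over monoculture of 1.06 in MM.1S cells and -0.68 in HS-5 cells, a difference of 1.75. KIF20B had 0.70 and -0.60, a difference of 1.30. The differences were not tested, since each condition was 1 library, and both genes have long transcripts, which as a group had higher ratios in MM.1S and lower ratios in HS-5 cells. With the trend over length removed, MKI67 was at 0.51 in MM.1S and -0.47 in HS-5 cells, and KIF20B at 0.17 and -0.47. All of these were under 1.5-fold. The part of length in the differences was not tested.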

How the results depend on the processing

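Each value rests on 1 library per group, so leaving out replicates was not done. No paired analysis was possible because each group is 1 library, which leaves 1 replicate number and no test. Depth is the main limit in MM.1S cells, where 379 of the 1647 cocultured cells reached 1000 UMIs, against 3870 of the 3947 in monoculture.

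In MM.1S cells the summed ratio of the members (-0.19) was -0.36 with the total taken without mitochondrial and ribosomal protein genes, -0.43 with the median of all genes set to 0, -0.30 in cells of 200 to 2500 genes and under 5% mitochondrial UMIs, -0.24 with free RNA subtracted, -0.069 at 500 UMIs per cell, 0.060 in cells of at least 500 genes and 0.44 at 1000 UMIs per cell. The median (-0.14) was -0.38 with the median of all genes set to 0, 0.11 in cells of at least 500 genes and 0.57 at 1000 UMIs per cell. The count of higher members (3) was 1 without mitochondrial and ribosomal protein genes, 1 with the median set to 0, 10 in cells of at least 500 genes, 6 at 500 UMIs, 21 at 1000 UMIs, 1 in the deeper 50% of cells and 0 with the length trend removed, and the count of lower members (8) was 13 with the median set to 0, 4 in cells of at least 500 genes, 2 at 1000 UMIs and 15 with the length trend removed. DLGAP5 changed from -0.66 to 0.35 at 1000 UMIs per cell.

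In HS-5 cells the summed ratio (-0.33) was -0.30 with the median set to 0, -0.42 with equal weight per cell, -0.37 in cells of 200 to 2500 genes and under 5% mitochondrial UMIs, -0.43 at 500 UMIs, -0.42 at 1000 UMIs and -0.28 in the deeper 50% of cells. The count of higher members (2) was 6 with equal weight per cell, 8 in cells of 200 to 2500 genes and under 5% mitochondrial UMIs, 5 at 500 UMIs, 4 at 1000 UMIs and 1 with the length trend removed, and the count of lower members (8) was 4 with that trend removed.

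Between the monocultures the summed ratio (1.91) was 1.64 without mitochondrial and ribosomal protein genes, 1.35 with the median set to 0, 2.17 with equal weight per cell, 1.93 in cells of at least 500 genes, 1.73 in cells of 200 to 2500 genes and under 5% mitochondrial UMIs, 2.20 at 500 UMIs, 2.29 at 1000 UMIs and 1.71 in the deeper 50% of cells. The median (1.58) was 1.02 with the median of all genes set to 0, 1.19 in cells of 200 to 2500 genes and under 5% mitochondrial UMIs and 1.08 with the length trend removed. The count of lower members (1) was 3 without mitochondrial and ribosomal protein genes, 3 with the median set to 0, 3 in cells of 200 to 2500 genes and under 5% mitochondrial UMIs, 2 with the length trend removed and 2 in the deeper 50% of cells.

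The share of high cells in MM.1S monoculture (7.12%) was 8.37% at 1000 UMIs, 9.98% at 250 UMIs, 4.81% with the limit at 5% of monoculture cells, 8.64% without BUB3, SMC4, HMGB2, CKS1B and CKS2, 9.91% with the shorter members and 9.35% with the longer. In MM.1S coculture (4.75%) the values under these settings were 10.6%, 7.35%, 3.17% and 6.42%, 11% with the longer members, and 3.28% in the deeper 50% of cells. In HS-5 monoculture (9.53%) it was 4.50% with the limit at 5%, 7.54% with the shorter members and 8.19% with the longer, and in HS-5 coculture (3.83%) 2.91% at 1000 UMIs, 1.22% with the limit at 5%, 11.9% with the shorter members and 1.44% with the longer. The median share of cells with a UMI of a member was 4.68%, 6.60%, 17.1% and 15% at 1000 UMIs and 11.5%, 3.76%, 19.3% and 16.0% without thinning, in MM.1S monoculture, MM.1S coculture, HS-5 monoculture and HS-5 coculture. In the upper 20% of cells the median share of a member's UMIs was 56.7%, 44.8%, 46.4% and 51.9% in the same order. Where a value changed, the cause was not tested. Of the ratios of single members, 1748 values stayed within the counting interval, 461 left it, and 1 of a member past 1.5-fold changed sign.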

Other observations

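The 107 coculture cells that held UMIs of both lines and were left out had a median of 1088 UMIs. The 45 members held 9241 CPM in them (8789 to 9710), between the 3564 CPM of the MM.1S and the 12128 CPM of the HS-5 cells of the same library.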
